A study of Mus musculus with 57 samples.

Results

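The genes described here are 38 genes that type I interferon induces, read in liver macrophages, blood monocytes and whole livers of mice fed a diet that gives fatty liver disease. They were chosen by symbol from the deposited table of read counts. Where a symbol had several transcripts, the one with the most reads over all 57 libraries was used. All 38 were found among the 24941 genes of the table, and all 38 passed the filter on low counts in each of the 4 sets of libraries, so none was lost to low counts.

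Type I interferons are secreted when a cell senses viral or misplaced nucleic acid. They bind the receptor made of Ifnar1 and Ifnar2, and the kinases Jak1 and Tyk2 then act on Stat2, which works with Irf9 in the complex ISGF3. ISGF3 binds a DNA element, the interferon-stimulated response element, before its target genes, and the products of these genes sense, degrade or hold back viral nucleic acid. Kupffer cells are macrophages resident in the liver that lie in the sinusoids and meet microbial material in portal blood. In non-alcoholic steatohepatitis (NASH) some of them are lost and monocytes from the blood take up their place.

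In all, 4 sets of libraries of polyadenylated RNA were used, none with an age in the labels. The population set held 2 libraries of each of 6 sorted populations of C57BL/6J mice. The first was Kupffer cells (F4/80 high, Tim4 positive) of mice on control diet, here healthy Kupffer cells. The other 5 came from mice on NASH diet, for a time the labels do not give. These were Kupffer cells of the same gate, Kupffer niche recruited macrophages (F4/80 high, Tim4 negative), CD11b-high recruited macrophages that were Ly6C-low or Ly6C-high, and Ly6C-high monocytes from blood. The time course held Kupffer cells of C57BL/6J mice before the diet, on control diet (week 0, 3 libraries), and after 1 (2), 4 (2), 10 (3), 20 (3) and 30 (4) weeks of NASH diet. The LXR set came from 20 weeks of NASH diet, with recruited macrophages of the Kupffer niche from mice whose LXR alpha and LXR beta genes are floxed, 3 libraries with and 3 without Clec4f-Cre, which the Kupffer cell gene Clec4f drives. The whole-liver set held livers after 4 weeks of a choline-deficient high-fat NASH diet (CDAHFD) from mice labelled positive (12) or negative (10) for Clec4f-cre DTR, where DTR is the diphtheria toxin receptor. No label says which allele the negative mice lack or whether toxin was given. The livers of sorted cells were perfused and digested in the presence of flavopiridol, a blocker of transcription, per the labels' protocol.

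Nothing in the labels says that replicates came from separate animals, so p-values measure the spread between these libraries, which may be technical. Total counts ran from 2319383 in the LXR set to 26969509 in the time course. Summed Kupffer cell markers lay between 14600 and 33900 CPM (read counts scaled to library size) in all Kupffer cell libraries and at 12000 to 14200 in niche recruited macrophages of the population set. They lay at 200 to 424 in the other recruited macrophages and under 1 in blood monocytes. In the LXR set the libraries labelled Cre positive were not lower in the floxed genes: Nr1h3 (LXR alpha) was at 312 ± 133 CPM (SD, n = 3) against 278 ± 30.3 in Cre negative, and Nr1h2 (LXR beta) at 69.3 ± 11.5 against 40.3 ± 9.46. Whether the counted exons include the floxed ones is not given. In whole liver Clec4f ran from 3.37 to 140 CPM (median 41.3) in libraries labelled DTR positive and from 1.37 to 118 (median 32.1) in DTR negative, so Clec4f does not separate these groups. Timd4, the gene of Tim4, had a lower mean in DTR positive, at 1.21 ± 1.14 CPM (n = 12) against 4.96 ± 5.36 (n = 10). Its medians were 0.883 and 3.06, and the ranges overlap. Neither Clec4f nor Timd4 differed between these groups at adjusted p below 0.05 in edgeR. In bulk RNA, fewer cells of a type and less RNA per cell cannot be told apart.

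The response element was taken as GAAA, 2 bases of any kind, and GAAA again, on either strand. It was looked for in RefSeq windows (GRCm38.p6) from 250 bases before to 50 after the start of each gene. The table held 29 of the 38 genes. The element was in 17 of the 29 windows (58.6%), against 1131 of 32851 windows of all genes (3.44%). The interferon-gamma activated motif, taken as TTC, 3 bases of any kind, and GAA, was in 7 of 29 (24.1%) against 2726 of 32851 (8.30%), and may overlap the first motif. The 250 bases before the start are shown for 5 genes that the results turn on, on the strand of the gene, with the response element in capitals. Isg15 (chr4:156200819-156201068, minus strand) has 3 overlapping matches that begin 78, 72 and 66 bases before the start. Ifit1 (chr19:34640639-34640888, plus strand) has 2, which begin 104 and 85 bases before it. Rsad2 (chr12:26456453-26456702, minus strand) has 1 at 120 bases, and Gbp7 (chr3:142530086-142530335, plus strand) has 1 at 53 bases. Irf7 (chr7:141266425-141266674, minus strand) is among the 12 of 29 genes with no match in this window.
Isg15: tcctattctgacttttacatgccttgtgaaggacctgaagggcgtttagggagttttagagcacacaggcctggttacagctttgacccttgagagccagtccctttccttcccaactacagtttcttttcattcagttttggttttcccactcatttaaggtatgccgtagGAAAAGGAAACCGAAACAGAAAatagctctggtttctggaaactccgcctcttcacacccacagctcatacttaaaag
Ifit1: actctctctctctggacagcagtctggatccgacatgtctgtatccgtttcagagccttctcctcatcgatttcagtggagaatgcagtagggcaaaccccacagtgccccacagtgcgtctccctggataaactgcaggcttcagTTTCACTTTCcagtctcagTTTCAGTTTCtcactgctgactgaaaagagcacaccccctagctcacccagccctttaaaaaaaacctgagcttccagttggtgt
Rsad2: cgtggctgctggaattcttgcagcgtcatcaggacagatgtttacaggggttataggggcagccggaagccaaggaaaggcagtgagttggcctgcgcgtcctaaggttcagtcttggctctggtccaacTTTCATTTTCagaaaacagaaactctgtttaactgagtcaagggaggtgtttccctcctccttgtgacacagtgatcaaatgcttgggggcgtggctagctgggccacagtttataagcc
Gbp7: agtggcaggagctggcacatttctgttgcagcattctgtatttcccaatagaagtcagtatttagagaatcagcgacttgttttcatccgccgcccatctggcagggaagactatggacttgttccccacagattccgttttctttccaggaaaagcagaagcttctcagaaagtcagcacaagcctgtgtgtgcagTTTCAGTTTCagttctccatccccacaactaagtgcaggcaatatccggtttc
Irf7: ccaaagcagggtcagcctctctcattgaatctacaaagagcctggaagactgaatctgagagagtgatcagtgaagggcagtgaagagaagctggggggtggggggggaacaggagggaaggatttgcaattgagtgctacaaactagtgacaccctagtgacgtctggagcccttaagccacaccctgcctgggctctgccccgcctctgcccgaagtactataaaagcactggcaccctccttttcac

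Levels were compared between genes in TPM, read counts divided by transcript length and scaled to the library. In healthy Kupffer cells the most abundant of the 38 was Ifitm3, a membrane protein that blocks entry of viruses, at 1391 ± 148 TPM (SD, n = 2). It was followed by the transcription factor Irf7 at 549 ± 48.9, the small membrane protein gene Ifi27l2a at 266 ± 1.67, the virus tether Bst2 at 168 ± 2.35 and Oas2, which makes the messenger that activates RNase L, at 121 ± 12.1. The lowest was Ifi44 at 3.08 ± 0.291 TPM. In blood monocytes Ifitm3 stood at 2806 ± 39.3, Ifi27l2a at 917 ± 38.9 and Slfn5 at 398 ± 112 TPM. Ifitm3 headed the list in whole liver of DTR-negative mice as well, at 704 ± 53.6 TPM (n = 10).

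The mean of log2(TPM + 1) over the 38 genes puts the libraries of all sets side by side. By this measure the lowest sorted libraries were the healthy Kupffer cells of the population set, at 5.03 and 5.00. The 4 highest were replicates 3 (6.54) and 2 (6.49) of the Cre-negative LXR-floxed recruited macrophages, replicate 2 of the blood monocytes (6.47) and replicate 3 of the Cre-positive cells (6.46). Other libraries of these groups were lower, down to 6.07, 6.09 and 6.09. Whole livers lay lower than every sorted library, from 3.23 to 4.39. The healthy Kupffer cells of the time course (5.76, 5.94 and 5.98) lay above those of the population set by more than the spread in either group. The order of libraries depends on the scale. By mean log2(CPM + 1) in the population set, replicate 2 of the Ly6C-low macrophages (5.85) lay below both healthy Kupffer cell libraries (6.03 and 5.97).

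**Figure D1:**
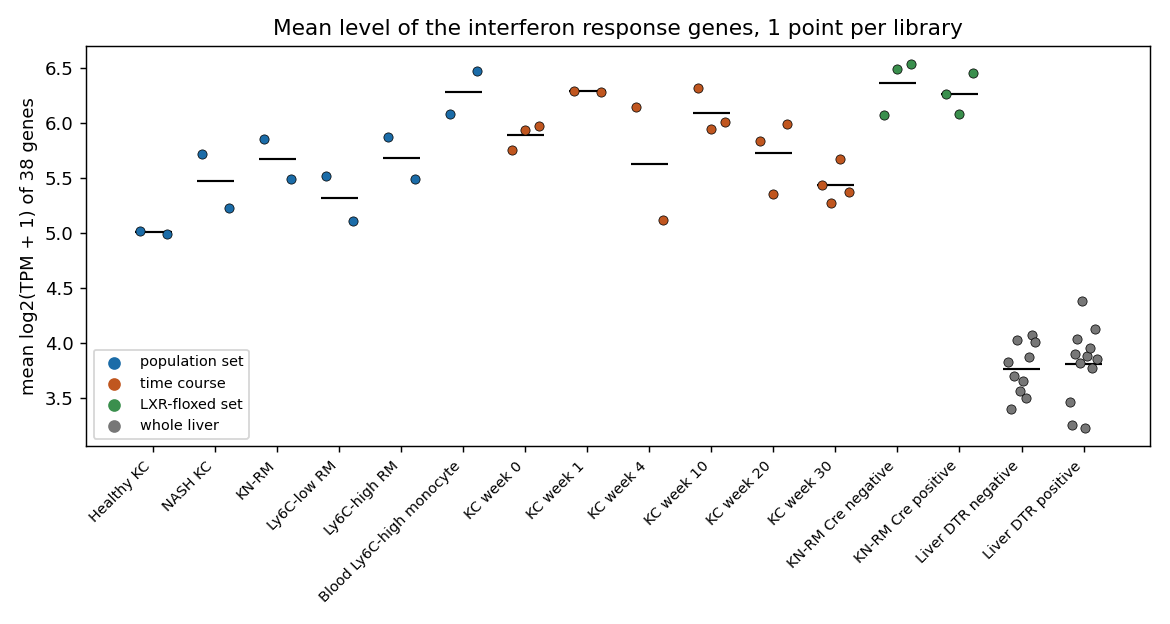
Mean log2(TPM + 1) of the 38 interferon response genes (vertical axis) in each of 57 libraries, by group. Points are libraries and lines group means (KC, Kupffer cells; RM, recruited macrophages; KN-RM, niche recruited macrophages); healthy Kupffer cells of the population set (5.00 and 5.03) are the lowest sorted libraries, and week 1 (6.29 and 6.30) stands above week 30 (5.28 to 5.67).

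Healthy and NASH-diet Kupffer cells of the population set were compared to ask how the diet goes with the state of resident macrophages. On NASH diet 13 of the 38 genes rose and none fell. The 38 had a median log2 difference of 0.63, against 0.00 for all genes. Of all 14407 genes tested, 20.7% were called: 11.2% rose and 9.56% fell. Tests were edgeR's quasi-likelihood test with Benjamini-Hochberg adjustment over all genes, and called means adjusted p below 0.05. The 2 NASH-diet libraries lay above both healthy ones in 28 of 38 genes (73.7%, against 32.0% of all genes) and below them in 3 (7.89% against 31.2%).

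The largest rise was that of Ifi44, an interferon-induced cytoplasmic protein. It read 55.3 and 38.5 CPM in the 2 NASH-diet libraries and 7.45 and 6.34 in the healthy ones, a log2 difference of 2.76 ± 0.36 (SE, adjusted p = 0.000494). Isg15, the ubiquitin-like protein joined to other proteins in infected cells, read 25.4 and 18.3 CPM against 5.37 and 2.98 (2.37 ± 0.29, adjusted p = 0.000302). Both genes were several times higher in each NASH-diet library than in each healthy one. Ifit2, of the family that binds foreign RNA, read 125 and 74.1 CPM against 25.8 and 33.7 (1.74 ± 0.40, adjusted p = 0.0134). Its relative Ifit1 read 22.3 and 15.1 against 7.64 and 5.52 (1.50 ± 0.38, adjusted p = 0.0190). The groups did not overlap in either gene, but the replicates of the NASH diet differed by more than those of control diet. The calls of Ifit2 and Ifit1 each depended on single libraries of both groups. With 1 library left out, the log2 difference ran from 1.32 to 2.05 for Ifit2 and from 1.19 to 1.76 for Ifit1. The other genes that rose were Bst2 (1.42), Cmpk2 (1.27), Oasl2 (1.07), the RNA sensor Dhx58 (0.97), Ifi27l2a (0.89), Ifi35 (0.72), the nucleic acid sensor Zbp1 (0.71), Slfn5 (0.64) and Gbp3 (0.60).

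By role, 2 of 3 IFIT genes, 2 of 4 sensors, 2 of 4 membrane proteins, 1 of 5 large GTPases and 1 of 5 genes of the OAS family rose. None of the transcription factors that drive the response was called. Stat2 read 308 and 189 CPM against 167 and 169 (0.56 ± 0.31, adjusted p = 0.220). Irf9 read 101 and 88.1 against 67.9 and 76.3 (0.39 ± 0.19, adjusted p = 0.166). Irf7 read 1170 and 730 against 743 and 821 (0.28 ± 0.32, adjusted p = 0.570), and its groups overlapped. Outside the 38, Irf8, a factor of myeloid cells, rose (0.67). Of 6 receptor genes only Ifngr1, of the interferon-gamma receptor, was called, and it fell (−0.76). Of 12 genes that interferon-gamma induces more strongly, 4 rose and 1 fell: Ciita, which switches on MHC class II, rose by 2.05 and Gbp2b fell by 1.52. Of 24 further interferon-induced genes, 3 rose and 1 fell.

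Markers of some other cell types moved here as well. Of 13 T and NK cell markers 9 rose, and their sum was 47.1 to 76.8 CPM on NASH diet against 18.7 to 22.4. Sinusoidal endothelium markers fell in 7 of 10 (141 to 184 against 309 to 338 CPM) and hepatocyte markers in 2 of 8 (121 to 378 against 602 to 897). No defining marker of these lists was at 0 in both groups. Plasmacytoid dendritic cell markers, from the cell type known for making much interferon, summed to 138 to 151 CPM against 165 to 214. The part of these cells in the result was not tested. On TPM the share of called genes that rose was 25.3%, against 53.9% on counts, and 8 of the 38 genes were called, all higher.

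Niche recruited macrophages and NASH-diet Kupffer cells share the F4/80-high gate and differ in Tim4. None of the 38 genes was called by edgeR, DESeq2 or limma, and 1 had an unadjusted p below 0.05 in edgeR. Of all genes 0.534% were called (0.333% up, 0.201% down), and 1311 had an unadjusted p below 0.05. The log2 differences of the 38 ran from −0.46 to 0.39, with a median of 0.09 against 0.01 for all genes. Irf7 read 1044 and 650 CPM in recruited and 1170 and 730 in Kupffer cells (−0.17, adjusted p = 0.951). Stat2 read 344 and 223 against 308 and 189 (0.19, adjusted p = 0.935), and Irf9 108 and 82.1 against 101 and 88.1 (0.01, adjusted p = 0.997). In each of the 3 genes replicate 1 read higher than replicate 2 in both groups. The libraries of niche recruited macrophages lay above both Kupffer cell libraries in 4 of the 38 genes (10.5%, against 22.3% of all genes) and below them in none (against 21.7%).

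Ly6C-low recruited macrophages, which lie outside the Kupffer cell gate, were lower than niche recruited macrophages in 15 of the 38 genes and higher in none (edgeR, adjusted p below 0.05). Of all genes 33.3% were called, and 18.1% were lower and 15.3% higher. The median of the 38 was −0.61 and that of all genes −0.01. The groups did not overlap in 24 genes that were lower (63.2% of the 38, against 35.2% of all genes) and 1 that was higher (2.63% against 32.3%). All 4 membrane and restriction proteins were among the 15. Bst2 read 58.6 and 42.0 CPM in Ly6C-low and 262 and 205 in niche recruited macrophages (−2.21 ± 0.17, adjusted p = 5.45e-06). Ifi27l2a read 55.5 and 44.9 against 228 and 159 (−1.95 ± 0.21, adjusted p = 5.79e-05). Every Ly6C-low library was well under every niche recruited one in both genes.

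Irf7, the factor that amplifies interferon production, read 311 and 166 CPM in Ly6C-low against 1044 and 650 in niche recruited macrophages (−1.83 ± 0.33, adjusted p = 0.00154). Ifi44 read 14.9 and 9.84 against 47.9 and 39.9 (−1.82 ± 0.33, adjusted p = 0.00181). The groups were apart in each of these 4 genes, and all 4 were called with any 1 library left out. The transcription factors did not move alike: Stat2 read 210 and 152 against 344 and 223 (−0.65 ± 0.31, adjusted p = 0.129), and Irf9 read 108 and 79.9 against 108 and 82.1 (−0.02 ± 0.19, adjusted p = 0.940). The other genes that were lower were Oasl1 (−1.82), Isg15 (−1.72), Rtp4 (−1.46), Cmpk2 (−1.22), Gbp3 (−1.08), Ifi35 (−0.88), Dhx58 (−0.77), Oas3 (−0.76), Gbp7 (−0.75), Ifitm3 (−0.64) and Oas1a (−0.60).

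Receptor genes differed too. Ifnar2 was at 137 to 159 CPM in Ly6C-low against 263 to 283 in niche recruited macrophages (−0.88, adjusted p = 0.000370), while Ifnar1, the other chain of the receptor, was higher (0.37, adjusted p = 0.0214). Ifnlr1, the chain that binds interferon lambda, was at 24.9 to 27.2 CPM against 0.870 to 1.32 (4.54). Jak2 was higher (1.68), and Irf8 (−0.73) and Irf3 (−0.51) were lower. Of 24 further interferon-induced genes 9 were lower and 1 higher. Il18bp, whose product binds interleukin 18, had the largest difference of them (45.2 to 74.5 against 740 to 792 CPM, −3.67). Endothelial markers were higher in Ly6C-low cells in 9 of 10 (534 to 538 against 146 to 177 CPM) and dendritic cell markers in 5 of 7 (386 to 410 against 53.3 to 56.5). Their part was not tested. On TPM the share of called genes that were higher was 75.6%, against 45.8% on counts, and 10 of the 38 were lower and 1 higher.

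Ly6C-low and Ly6C-high recruited macrophages of the NASH liver share the CD11b-high gate. In Ly6C-low cells 8 of the 38 genes were lower and 1 was higher (edgeR, adjusted p below 0.05). Of all genes 25.7% were called, 14.0% lower and 11.6% higher. Over all 38 the median was −0.38, and the groups did not overlap in 16 lower (42.1%, against 34.2% of all genes) and 2 higher genes (5.26% against 30%). Ifi27l2a read 55.5 and 44.9 CPM in Ly6C-low and 175 and 211 in Ly6C-high (−1.94 ± 0.21, adjusted p = 0.000122). Ifitm3 read 372 and 249 against 985 and 955 (−1.64 ± 0.22, adjusted p = 0.000468). Isg15 read 7.80 and 8.63 against 21.8 and 18.2 (−1.29 ± 0.26, adjusted p = 0.00536).

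In these 3 genes both Ly6C-low libraries lay below both Ly6C-high ones. Cmpk2, a mitochondrial nucleotide kinase that lies beside Rsad2, read 23.6 and 18.7 against 52.2 and 37.0 (−1.07 ± 0.23, adjusted p = 0.00660). Ifi44 went the other way, with 14.9 and 9.84 against 6.39 and 5.19 CPM (1.10 ± 0.35, adjusted p = 0.0403), and without Ly6C-low replicate 1 or either Ly6C-high replicate it was not called. Isg15 had an adjusted p of 0.0536 without Ly6C-low replicate 1, and Cmpk2 one of 0.0528 without Ly6C-high replicate 1. Zbp1 (−0.78), Sp100 (−0.74), Slfn5 (−0.74) and Ifi35 (−0.63) were lower as well. Stat2 read 210 and 152 against 298 and 172 (−0.38, adjusted p = 0.401). Irf9 read 108 and 79.9 against 130 and 97.5 (−0.28, adjusted p = 0.304), and Irf7 311 and 166 against 357 and 268 (−0.39, adjusted p = 0.404). All 3 overlapped between groups. Among markers of other cell types, those of hepatocytes were lower in Ly6C-low cells in 8 of 8 (140 to 321 against 1320 to 3530 CPM), of neutrophils in 8 of 10 and of endothelium in 7 of 10 (534 to 538 against 830 to 886), and those of dendritic cells were higher in 6 of 7. Their part was not tested.

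Ly6C-high recruited macrophages of the liver were set against Ly6C-high monocytes from blood. No label says that these blood cells give rise to the liver cells. In the liver 20 of the 38 genes were lower and 2 higher (edgeR, adjusted p below 0.05). Of all genes 48.6% were called, 21.3% lower and 27.3% higher. Their median was −0.67 over all 38, and the groups did not overlap in 26 lower (68.4%, against 36.8% of all genes) and 2 higher genes (5.26% against 38%). Slfn5, of a family that limits growth and viral translation, read 568 and 441 CPM in liver and 1329 and 1979 in blood (−1.71 ± 0.20, adjusted p = 4.62e-05). Eif2ak2, the kinase PKR that halts translation on double-stranded RNA, read 102 and 87.0 against 187 and 260 (−1.24 ± 0.19, adjusted p = 0.000353). Both liver libraries lay below both blood libraries in each of these genes.

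Samd9l, a cytoplasmic restriction factor, read 142 and 116 against 216 and 365 CPM (−1.18 ± 0.25, adjusted p = 0.00249). Rtp4, a chaperone of membrane receptors, read 45.7 and 30.4 against 68.4 and 95.0 (−1.10 ± 0.29, adjusted p = 0.00830), and it was not called without blood replicate 2 or Ly6C-high replicate 2. Irf9 was lower, at 130 and 97.5 against 197 and 211 (−0.85 ± 0.19, adjusted p = 0.00340). Among the transcription factors it was the only one called here: Stat2 read 298 and 172 against 323 and 436 (−0.69, adjusted p = 0.0840) and Irf7 357 and 268 against 364 and 461 (−0.40, adjusted p = 0.319). Xaf1, which favours cell death, was higher in the liver at 130 and 106 against 70.1 and 77.4 (0.68 ± 0.16, adjusted p = 0.00424). So was Ifi44, at 6.39 and 5.19 against 1.52 and 4.23 (1.10 ± 0.40, adjusted p = 0.0419), which was not called without blood replicate 1 or either Ly6C-high replicate.

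Upstream, the kinase gene Tyk2 (−0.33) and the RNA sensor Tlr7 (−1.40) were lower in the liver cells. Of 6 receptor genes 2 were higher and 2 lower. Among 12 genes that interferon-gamma induces more strongly, 7 were higher and 2 lower. Further interferon-induced genes were higher in 4 of 24 and lower in 10. All 8 hepatocyte markers, summing to 1320 to 3530 CPM, were at 0 in both blood libraries, and all 10 endothelial markers were higher in liver (830 to 886 against 1.94 to 1.95). Blood and liver cells differ in site and in preparation, which cannot be told apart here. The part of these other RNAs was not tested.

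**Figure D2:**
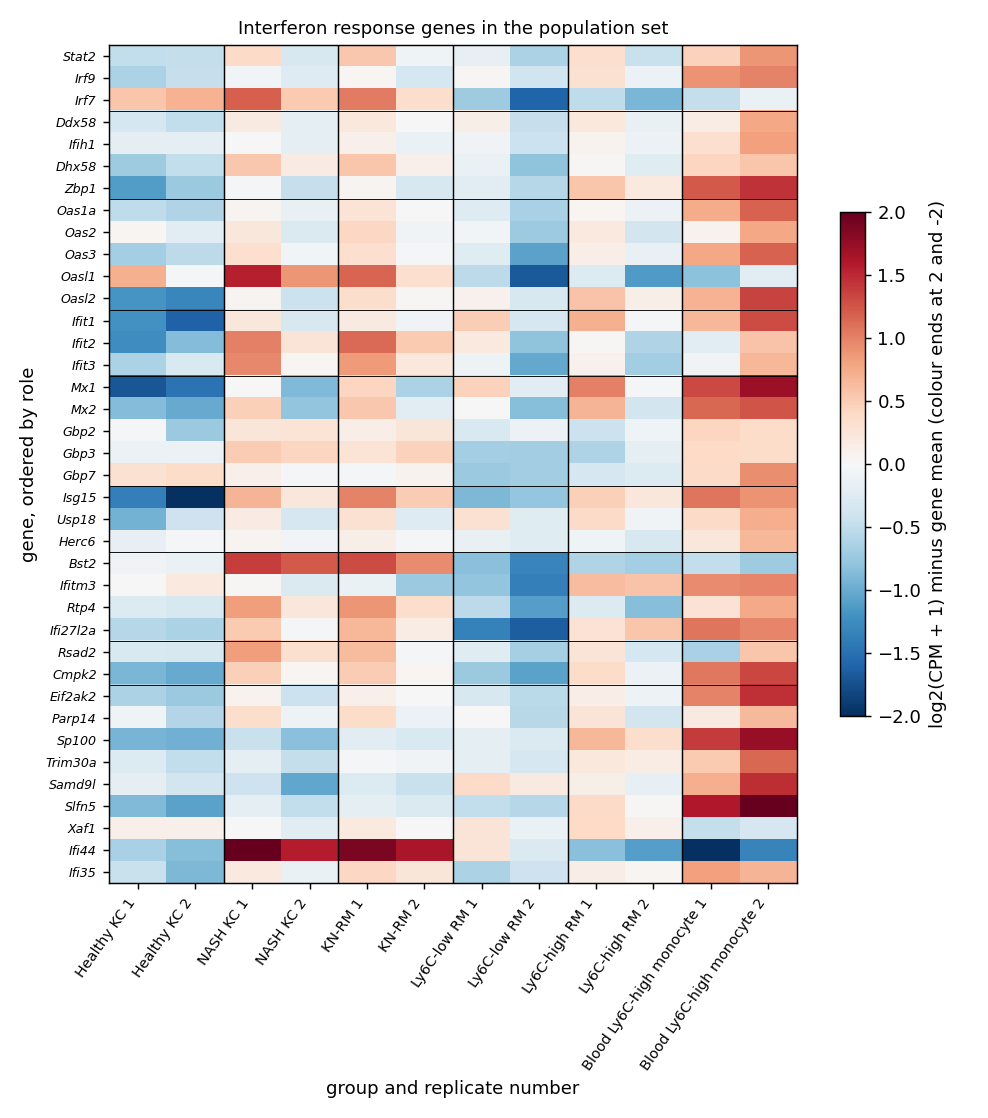
Heat map of the 38 genes (rows) in the 12 libraries of the population set (columns), as log2(CPM + 1) minus the mean of each gene over the libraries. Healthy Kupffer cells are low in most rows, blood monocytes high, and replicate 1 is the higher library in 37 of 38 genes of NASH-diet Kupffer cells.

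Replicates of a group differed in most of the 38 genes at once. Replicate 1 was the higher library in 37 of 38 genes in NASH-diet Kupffer cells, 35 in niche recruited macrophages, 34 in Ly6C-high and 34 in Ly6C-low macrophages. Over all genes the share higher in replicate 1 was between 45.8% and 49.9% in these groups. In blood the order was turned, with 32 of 38 genes higher in replicate 2, and in healthy Kupffer cells 25 genes were higher in replicate 1 and 13 in replicate 2. In the time course replicate 1 of week 4 was higher than replicate 2 in 38 of 38 genes, by a median of 1.03 on the log2 scale, against 49.3% of all genes. At week 20 replicate 2 was below replicate 1 in 36 genes and below replicate 3 in 35.

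The mean correlation between pairs of the 38 genes, after group means were removed, was 0.593 in the population set, 0.657 in the time course, 0.288 in the LXR set and 0.353 in whole liver. Over all genes it was between 0.000717 and 0.00217 in the 4 sets. Scaling of the libraries keeps that value near 0, so it is no yardstick for the 38. The correlations are descriptions over 12, 17, 6 and 22 libraries, and genes of 1 library share its depth and its cells. Positive pairs numbered 624, 685, 502 and 586 of 703. Gbp3 and Gbp2, guanylate-binding proteins, stood apart in the population set, where their correlation with the mean of the other genes was −0.45 and −0.33. The median SD within groups of the population set was 0.285 for the 38 genes against 0.188 for all genes. What makes whole libraries high or low in these genes was not tested.

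In the time course, week 1 was the time at which most of the 38 genes stood high by CPM. By mean log2(TPM + 1), week 10 replicate 1 (6.32) lay above both week 1 libraries (6.30 and 6.29). Of the 38, 6 rose and none fell against week 0 (edgeR, adjusted p below 0.05), while 16.0% of all 14552 genes were called, 9.42% up and 6.56% down. The median of the 38 was 0.63 and that of all genes was near 0. Both week 1 libraries lay above all 3 of week 0 in 32 genes (84.2%, against 23.0% of all genes) and below them in 1 (2.63% against 22.2%). Rsad2, or viperin, which makes a chain-terminating nucleotide, read 177 and 188 CPM at week 1 and 75.0, 76.1 and 83.3 at week 0 (1.22 ± 0.37, adjusted p = 0.0327). Oas1a, a maker of the RNase L messenger, read 112 and 117 against 39.6, 65.7 and 58.1 (1.07 ± 0.24, adjusted p = 0.00558). The 2 week 1 libraries lay close together in both genes and apart from week 0.

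Irf7 rose to 1002 and 1152 CPM from 452, 638 and 678 (0.87 ± 0.27, adjusted p = 0.0390). Ifitm3 rose to 819 and 1022 from 373, 581 and 581 (0.85 ± 0.25, adjusted p = 0.0290). Slfn5 (0.81) and the RNA sensor Ifih1 (0.64) were also called. Of the 4 genes given by library, Oas1a was called with any 1 library left out, Rsad2 with none, Irf7 in 1 of 5 and Ifitm3 in 2 of 5 such fits. The number of called genes was then 1 to 6. Stat2 read 281 and 267 CPM against 284, 298 and 307 (−0.11, adjusted p = 0.817) and Irf9 110 and 97.1 against 90.0, 116 and 104 (0.00, adjusted p = 0.991). Further interferon-induced genes rose in 6 of 24 and fell in none, with Apol9a, Apol9b and Ifit3b the largest, and Irf8 rose (0.53).

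All 8 hepatocyte markers rose at week 1, to a sum of 2910 to 4250 CPM from 42.4 to 132, and 9 of 10 endothelial markers fell (279 to 379 against 515 to 1610). Their part was not tested. On TPM 28.8% of called genes rose at week 1, against 59.0% on counts, and 1 of the 38 was called, higher. At the later times this share was 33.3% on TPM against 65.0% at week 4, 47.7% against 60.1% at week 10, 23.6% against 52.3% at week 20 and 19.7% against 50.8% at week 30.

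At week 4 the 2 libraries stood far apart. Only Gbp7, a guanylate-binding protein of the interferon-induced GTPases, was called among the 38, against 8.54% of all genes (5.55% up, 2.99% down). It read 118 and 102 CPM against 172, 135 and 162 at week 0 (−0.50 ± 0.13, adjusted p = 0.0219). The median of the 38 was −0.02. Irf7 read 1115 and 493 CPM (0.45, adjusted p = 0.346), Stat2 311 and 148 (−0.36, adjusted p = 0.425) and Irf9 88.2 and 71.1 (−0.37, adjusted p = 0.168). With replicate 1 of week 4 left out 2 genes were called, both lower, and with replicate 2 left out 2 were called, both higher. Irf1, a factor that acts beside ISGF3, fell outside the 38 (50.4 to 78.8 against 226 to 246 CPM, −1.88, adjusted p = 0.000385).

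At week 10 none of the 38 was called by edgeR, against 19.1% of all genes (11.5% up, 7.63% down). At an unadjusted p below 0.05 there were 9 of the 38, against 4828 of all 14552 genes. DESeq2 called 1 and limma on TPM none. The median of the 38 was 0.27, and week 10 libraries lay above all of week 0 in 13 genes (34.2%, against 16.6% of all genes) and below in none (against 15.2%). Stat2 read 329, 267 and 279 CPM (−0.02, adjusted p = 0.959), Irf9 85.7, 88.1 and 108 (−0.14, adjusted p = 0.541), and Irf7 732, 703 and 813 (0.35, adjusted p = 0.350). All 3 Irf7 values were above the 3 of week 0. Irf1 (−1.04) was again lower.

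At week 20, 4 of the 38 genes rose and 5 fell, with a median of 0.08. That is 23.7% of the 38 called, fewer than the 34.7% of all genes. Week 20 libraries lay above all of week 0 in 8 genes (21.1%, against 23.7% of all genes) and below in 4 (10.5% against 22.1%). Of all genes 18.2% rose and 16.6% fell. Ifi44 read 79.9, 40.0 and 91.8 CPM against 19.3, 22.4 and 26.9 at week 0 (1.62 ± 0.39, adjusted p = 0.00487). Oasl1, a relative of the OAS enzymes that restrains Irf7 translation in mouse, read 149, 94.1 and 208 against 51.1, 77.3 and 72.7 (1.16 ± 0.32, adjusted p = 0.0116). Oas3 read 353, 274 and 377 against 148, 164 and 199 (0.97 ± 0.30, adjusted p = 0.0188), and Dhx58 149, 114 and 180 against 81.4, 107 and 106 (0.59 ± 0.19, adjusted p = 0.0285). No week 20 library fell to the range of week 0 in these 4 genes, though replicate 2 was the lowest in each.

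The 5 that fell were 2 of the 3 guanylate-binding proteins, Rtp4, Samd9l and Trim30a. Gbp7 read 79.3, 74.9 and 63.1 CPM against 172, 135 and 162 (−1.11 ± 0.11, adjusted p = 4.36e-06). Gbp3 read 79.0, 60.6 and 73.9 against 132, 152 and 148 (−1.02 ± 0.15, adjusted p = 9.80e-05). Both were lower in each week 20 library by a wide gap. Samd9l read 125, 88.1 and 121 against 161, 184 and 222 (−0.76 ± 0.17, adjusted p = 0.00326). Rtp4 read 70.5, 36.2 and 91.0 against 85.8, 146 and 131 (−0.88 ± 0.30, adjusted p = 0.0340), with overlapping groups. Trim30a, a ubiquitin ligase family member, fell by 0.58. Stat2 read 312, 187 and 345 (−0.07, adjusted p = 0.820), Irf9 81.8, 75.6 and 102 (−0.26, adjusted p = 0.174) and Irf7 913, 746 and 1032 (0.61 ± 0.25, adjusted p = 0.0667). Of the 8 changes given by library, those of Ifi44, Gbp7, Gbp3 and Samd9l were called with any 1 library left out.

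At week 30 there were 2 rises and 7 falls, with a median of −0.19. That is 23.7% of the 38 called, against 30.5% of all genes (15.5% up, 15.0% down). Week 30 libraries lay above all of week 0 in 2 genes (5.26%, against 22.5% of all genes) and below in 11 (28.9% against 21.4%). Ifi44 read 47.5, 38.9, 63.9 and 45.7 CPM (1.10 ± 0.37, adjusted p = 0.0335) and Oasl1 110, 124, 154 and 97.7 (0.86 ± 0.31, adjusted p = 0.0432), all above week 0. Neither was called in 6 of the 7 fits that left out 1 library. Gbp7 read 60.9, 61.2, 62.9 and 58.3 CPM (−1.36 ± 0.10, adjusted p = 2.23e-07), Samd9l 101, 82.1, 104 and 79.8 (−1.04 ± 0.16, adjusted p = 0.000165) and Gbp3 86.5, 73.2, 84.9 and 84.2 (−0.81 ± 0.14, adjusted p = 0.000318). Trim30a read 206, 178, 221 and 185 against 315, 324 and 366 (−0.76 ± 0.18, adjusted p = 0.00483). These 4 falls were called in every fit that left out 1 library. Irf9 read 87.7, 72.1, 79.7 and 81.9 (−0.36 ± 0.13, adjusted p = 0.0481) and was not called in 6 of 7 such fits, nor with DESeq2, RLE factors, no filter or a replicate block. Oas2 (−0.71) and Eif2ak2 (−0.57) fell too. Stat2 read 236, 205, 272 and 234 (−0.32, adjusted p = 0.269) and Irf7 496, 656, 807 and 564 (0.10, adjusted p = 0.784).

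Genes that interferon-gamma induces more strongly fell in 5 of 12 and rose in 1 at both week 20 and week 30. At week 30 Gbp2b fell by 1.94 and Gbp4 by 1.77, and Ciita rose by 1.97. Irf1, a main factor of that response, was at 98.6 to 136 CPM at week 30 against 226 to 246 (−1.01, adjusted p = 0.000810), and Irf8 rose (0.80). Of the receptors Ifngr1 fell at week 20 (−0.51) and week 30 (−0.56), and Ifnar2 at week 20 (−0.36, adjusted p = 0.0298). The DNA sensor Tlr9 rose at week 20 (1.98) and week 30 (1.40). Of 11 sensor and adaptor genes upstream of interferon, 2 rose and 3 fell at both times. Further interferon-induced genes rose in 4 of 24 and fell in 5 at week 20, and rose in 1 and fell in 6 at week 30. Endothelial markers fell in 8 of 10 at week 20 (240 to 541 against 515 to 1610 CPM) and in 10 of 10 at week 30 (171 to 249), and Kupffer cell markers fell in 5 of 6 at week 20 (16300 to 19700 against 19300 to 25800) and in 4 of 6 at week 30 (14600 to 19900). Stellate cell markers rose in 5 of 8 at weeks 10, 20 and 30 (216 to 469 against 145 to 243 CPM over these times), while hepatocyte markers rose in 5 of 8 at both times, in 6 of 8 at week 4 and in 7 of 8 at week 10. Their part was not tested. All these comparisons share the 3 libraries of week 0.

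**Figure D3:**
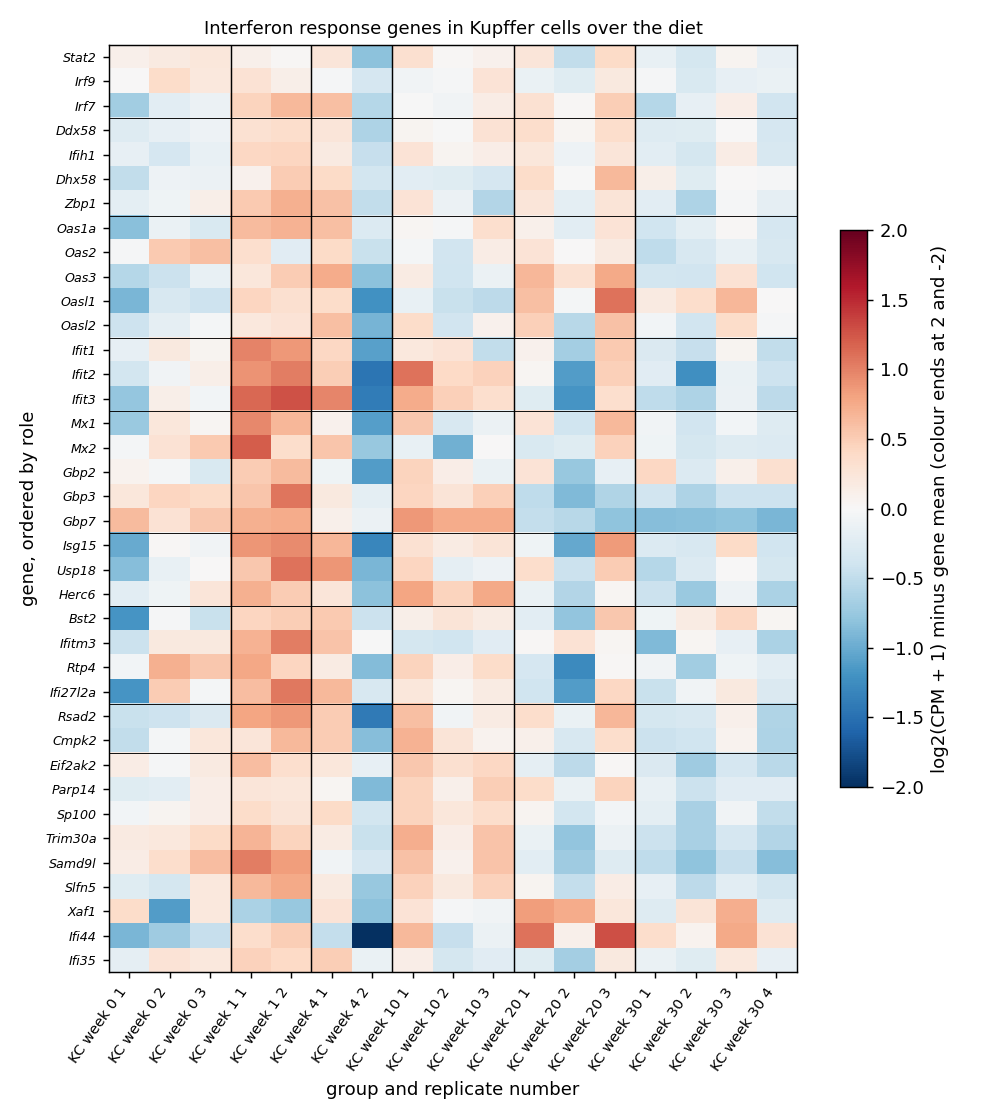
Heat map of the 38 genes (rows) in the 17 libraries of the time course (columns, by weeks of diet), as log2(CPM + 1) minus the mean of each gene. Both week 1 libraries are high in most rows, replicate 2 of week 4 is low in 38 of 38 against replicate 1, and Gbp3, Gbp7 and Samd9l are low at weeks 20 and 30.

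A comparison that does not use week 0 set week 30 against week 1. It was added after the data were seen. By mean log2 CPM of the 38 genes week 1 was then known as the highest group (7.32) and week 30 as the lowest (6.54), so the choice favours a fall. Of the 38 genes 22 were lower at week 30 and none was higher (edgeR, adjusted p below 0.05). Of all genes 32.9% were called, 17.7% lower and 15.1% higher. Over the 38 the median was −0.87, and 37 of 38 differences were negative. The largest were those of Ifit3 (−1.66 ± 0.44, adjusted p = 0.00796), Samd9l (−1.59 ± 0.18, adjusted p = 9.75e-06) and Gbp7 (−1.59 ± 0.11, adjusted p = 1.87e-07). Ifit3, the partner of Ifit1 in binding RNA, read 152 and 166 CPM at week 1 and 47.3, 43.8, 62.4 and 47.1 at week 30. Hepatocyte markers summed to 2910 to 4250 CPM at week 1 and to 221 to 835 at week 30. Endothelial markers summed to 279 to 379 CPM at week 1 and to 171 to 249 at week 30. The part of these other RNAs was not tested here. With 1 library left out between 10 and 22 genes were called.

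Both sets hold healthy and NASH-diet Kupffer cells of the same gate, so all 21 libraries were also fitted together, after the data were seen. Between the healthy cells, 19 of the 38 genes were higher at week 0 than in the population set and none was lower (edgeR, adjusted p below 0.05). Of all genes 25.1% were called, 10.5% higher and 14.7% lower at week 0. For the 38 the median was 0.82. Ifit2 (1.94), Ifit1 (1.82), Ifi44 (1.74) and Isg15 (1.73) differed most. With healthy replicate 2 of the population set left out, 3 genes were called. Between the NASH-diet cells of week 30 and of the population set, edgeR called none of the 38 and 0.0% of all genes, with 2 of the 38 and 895 of all genes at an unadjusted p below 0.05. Set and baseline cannot be told apart.

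The difference between NASH-diet and healthy cells, here called the diet effect, was then compared between sets. The labels give no age, so diet and age cannot be told apart in it. This diet effect was more positive in the population set than at week 20 in 4 of the 38 genes and less in none. Of all genes 13.9% were called, 4.71% more positive and 9.23% less. The 4 were Rtp4 (1.70), Gbp3 (1.57), Eif2ak2 (0.80) and Gbp7 (0.76). Against week 30 the genes were Gbp3 (1.36), Eif2ak2 (1.05) and Gbp7 (1.01), against 2.06% of all genes called (0.424% more positive, 1.63% less). In the shared scale Gbp3 was at 50.9 and 50.6 CPM in healthy and 75.7 and 72.6 in NASH-diet cells of the population set, but at 131, 151 and 147 at week 0 and 85.4, 72.4, 84.0 and 83.2 at week 30. The NASH-diet cells of both sets lay close together and the healthy cells lay on opposite sides of them. Gbp7 was at 69.4 and 72.1 against 57.7 and 53.2 CPM in the population set, and at 170, 134 and 160 against 60.2, 60.5, 62.2 and 57.6 in the time course. Without NASH-diet replicate 1 of the population set none differed from week 30, and with 1 library left out 1 to 10 genes differed from week 20.

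**Figure D4:**
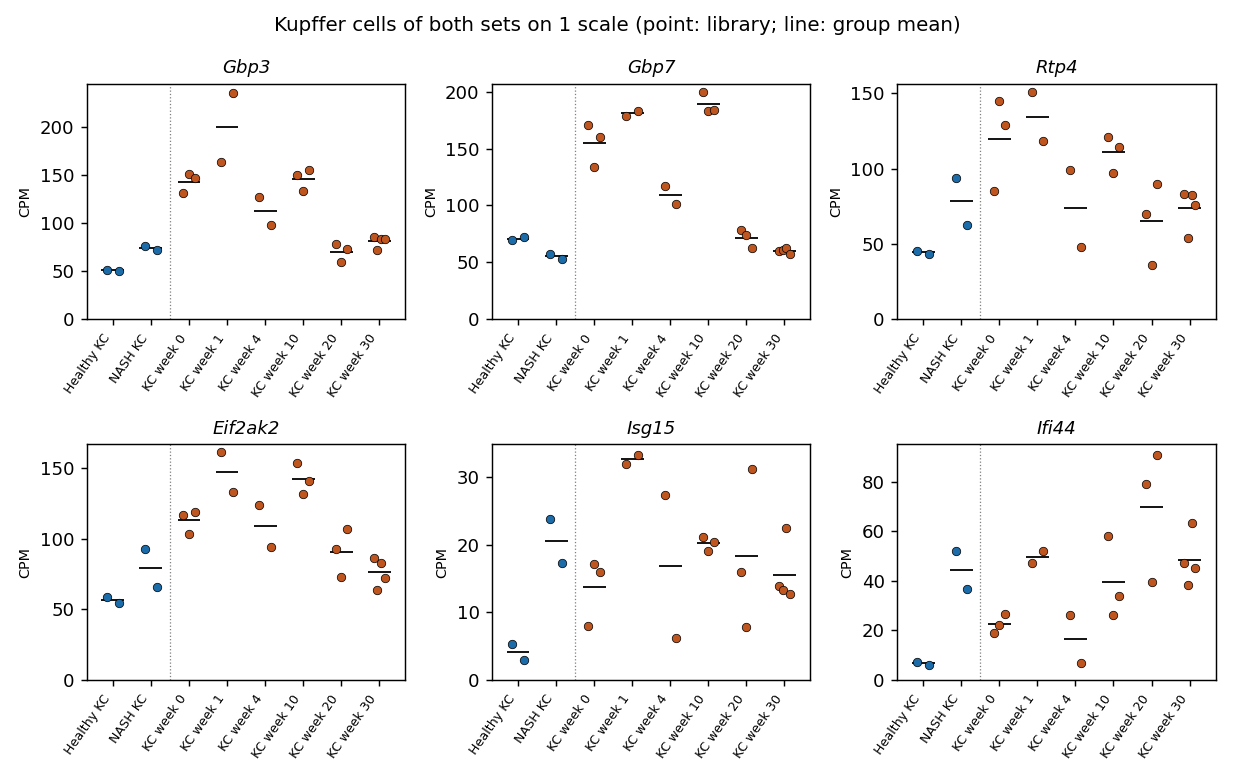
CPM of Gbp3, Gbp7, Rtp4, Eif2ak2, Isg15 and Ifi44 in each Kupffer cell library of the population set and the time course, scaled together; points are libraries and lines group means. Healthy cells of the 2 sets differ (Gbp3 at 50.6 to 50.9 and 131 to 151), and NASH-diet cells of the population set (72.6 and 75.7) lie within or near the range of week 30 (72.4 to 85.4).

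In niche recruited macrophages of LXR-floxed mice none of the 38 genes was called between Cre-positive and Cre-negative libraries by edgeR or limma, and 0.209% of all 11480 genes were called (0.174% up, 0.0348% down). DESeq2 called 1 of the 38, lower in the libraries labelled Cre positive. In edgeR 6 of the 38 had an unadjusted p below 0.05, against 947 of all 11480 genes. LXR alpha and beta are nuclear receptors for oxidised sterols, known to restrain inflammatory genes in macrophages. Log2 differences ran from −0.98 (Gbp7) to 0.40 (Ifi35), with a median of −0.10. Irf7 read 269, 554 and 494 CPM in Cre-positive and 238, 478 and 465 in Cre-negative libraries (0.16, adjusted p = 0.964). Stat2 read 241, 221 and 288 against 227, 294 and 383 (−0.27, adjusted p = 0.873), and Irf9 53.7, 60.0 and 58.7 against 56.7, 80.2 and 71.3 (−0.27, adjusted p = 0.848). The groups overlapped in all 3 genes. Cre-positive libraries lay below all Cre-negative ones in 9 of the 38 genes (23.7%, against 7.03% of all genes). They lay above them in 1 (2.63% against 7.17%). Kupffer cell markers summed to 1190 to 8090 CPM in Cre-positive and 2440 to 3360 in Cre-negative libraries, well below the niche recruited cells of the population set. This set was the shallowest of the 4, with 3 libraries a group, which limits what it can show.

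In whole liver none of the 38 genes was called between DTR-positive and DTR-negative mice, nor was any other gene (0.0% called by edgeR, and none by DESeq2). At an unadjusted p below 0.05 there were 477 of 12682 genes and none of the 38. Differences of the 38 ran from −0.20 to 0.24. Irf7 ran from 80.2 to 145 CPM (median 103) in 12 positive and from 85.0 to 121 (median 98.1) in 10 negative livers (0.09). Stat2 ran from 78.5 to 125 (median 89.5) against 76.3 to 98.8 (median 87.4, 0.08), and Irf9 from 36.5 to 73.5 (median 55.3) against 41.8 to 70.9 (median 53.3, 0.04). All 3 had an adjusted p of 1. The ranges of the groups lay over each other.

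**Figure D5:**
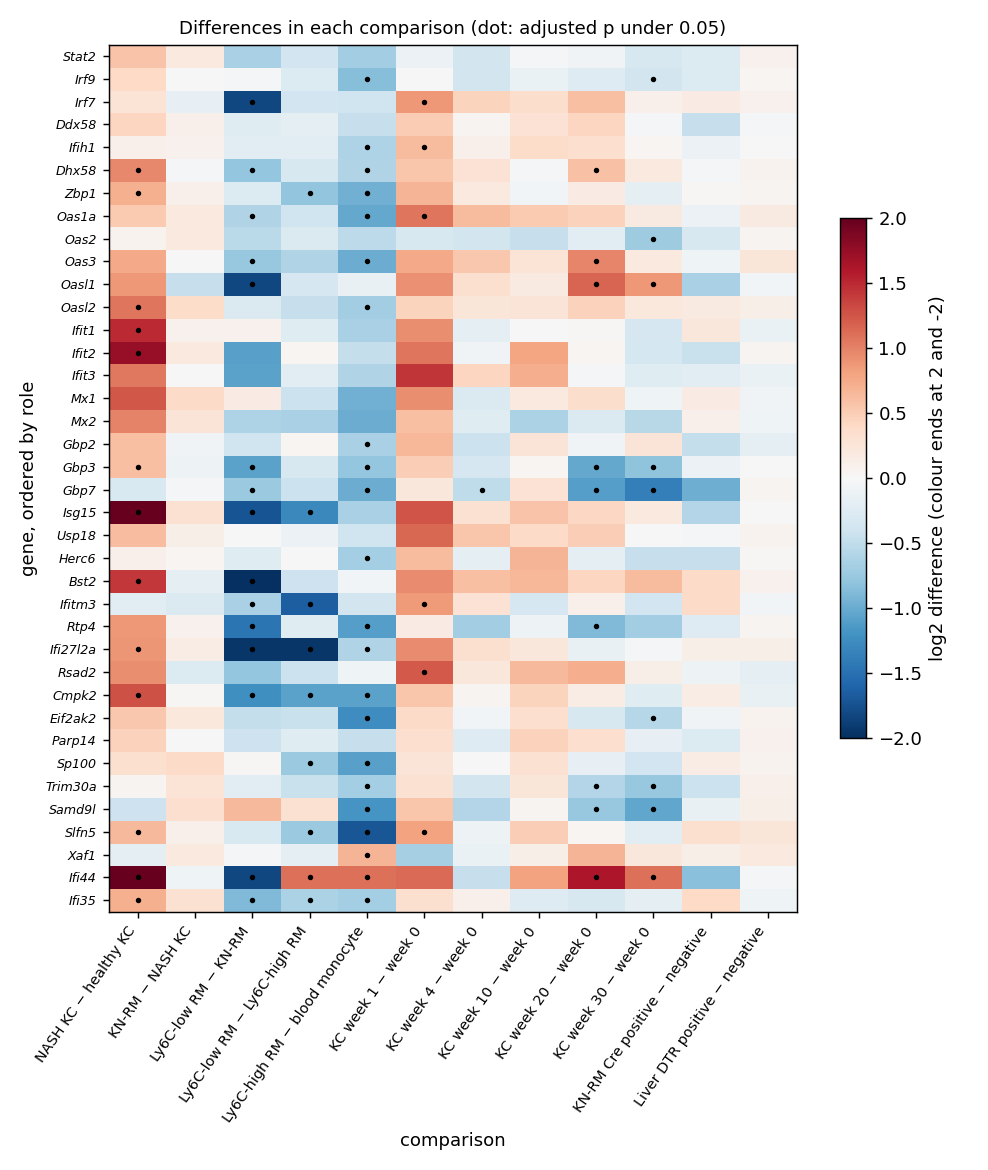
Log2 differences of the 38 genes (rows) in the 12 comparisons (columns) by edgeR; a dot marks adjusted p below 0.05. Dots number 13 for NASH-diet against healthy Kupffer cells, 15 for Ly6C-low against niche recruited macrophages, 22 for Ly6C-high macrophages against blood monocytes, and none for niche recruited macrophages against Kupffer cells, week 10, the LXR set or whole liver.

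Transcripts of the interferons themselves were near the limit of counting. Ifna1, Ifna2, Ifna4, Ifna5, Ifne and Ifnl3 were at 0 in all 57 libraries, which allows up to 3 counts in each, and Ifnl2 had 1 count in all. Ifnb1, interferon beta, had 17 counts in 6 libraries. They were 8 in Ly6C-low replicate 1, 3 in niche recruited replicate 1, 3 in week 30 replicate 3, and 1 each in week 1 replicate 2, week 4 replicate 1 and week 20 replicate 3. Each of the 6 was the library of its group with the highest mean log2 CPM of the 38 genes, and 4 of the 6 were the deepest of their group. By mean log2 TPM it was 5 of 6. Groups had only 2 to 4 libraries, and 17 counts carry no test. Ifng, interferon gamma, had 159 counts in 30 libraries, at most 27 in 1.

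By the correlation with the mean of the 38 genes over the 33 sorted liver libraries, the genes most like them were Ifit3b (Pearson r = 0.902), Ifi211 (0.880), Gm12250 (0.874), Phf11d (0.849) and Ifi204 (0.833). Libraries of different populations share these points, and the values are a description. Some of the 38 have near copies, and how shared reads were assigned is not given. Of the 50-base words of the transcript, 57.6% of those of Oas1a are also in Oas1g, 51.2% of those of Ifit3 in Ifit3b, 23.8% of those of Herc6 in Gm45193, and 12.8% of those of Gbp7 in another gene (GENCODE transcripts). Values of Oas1a, Ifit3 and Herc6 are uncertain to that extent. The genes are clustered in the genome: 5 genes of the OAS family lie on chromosome 5, the 3 guanylate-binding genes and Ifi44 on chromosome 3, and the 3 IFIT genes on chromosome 19.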

How the data were processed

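The authors deposited raw read counts and TPM per RefSeq transcript for 57 polyadenylated RNA libraries. STAR, HOMER and DESeq2 are named in the submitters' processing notes without versions, with the builds mm10 and GRCm38. The strand setting is not given in the sources used here. The 40458 transcripts were reduced to 24941 genes, taking for each symbol the transcript with the highest total count.

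Each of the 4 sets (12, 17, 6 and 22 libraries) was fitted in edgeR 4.0.16 (R 4.3.3) on the deposited counts, with filterByExpr (minimum count 10, minimum total 15), TMM factors, the quasi-likelihood test, two-sided, and Benjamini-Hochberg adjustment over all genes tested, called below 0.05. CPM are counts over TMM-scaled library sizes within a set. The script was tested on simulated data. Alternatives were DESeq2 1.42.0, limma 3.58.1 on log2(TPM + 1), RLE factors, no filter, 2 groups only, a replicate block and leaving out each library. Over 140 pairs of replicates within a group the chi-square per degree of freedom was 5.30 to 85.7, so no such pair was a duplicate. Pairs from different groups were not compared.

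The 38 genes and all lists were chosen with earlier results of these data known. Values by library are given for up to 4 called genes of largest change in each direction per comparison, called genes that moved against the majority, and Stat2, Irf9 and Irf7. Other pathway genes come from fixed lists, up to 3 called ones per list and comparison, with the ligands and receptors.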

Additional observations from a re-analysis of the deposited data

Results flagged for a closer look

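In the groups of 4 (week 30) and of 10 libraries (DTR-negative livers), each of the 38 genes and their mean were looked at, 78 sets of values in all, and 5 had a library far from the others. Chance gives about 1 in 20. Oas3 at week 30 was highest in replicate 3, at 270 CPM against 170 in the next, a gap of 0.979 of the range. Isg15 at week 30 was highest in the same replicate, at 22.8 against 14.0 CPM (0.880 of the range). Gbp3 at week 30 was lowest in replicate 2, at 73.2 against 84.2 CPM (0.830). In whole liver of DTR-negative mice Gbp2 was lowest in replicate 2, at 4.20 against 11.8 CPM (0.506), and Ifitm3 highest in replicate 5, at 473 against 397 CPM (0.541).

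The difference between NASH-diet and healthy Kupffer cells was not the same in the population set and the time course, in a test of the 2 differences against each other. Against week 20 this was so for Gbp3 (log2 difference of effects 1.57), Gbp7 (0.76), Rtp4 (1.70) and Eif2ak2 (0.80). Against week 30 it was so for Gbp3 (1.36), Gbp7 (1.01) and Eif2ak2 (1.05). The duration of diet in the population set is not given, and the healthy cells of the sets differ as well, so set, duration and baseline cannot be told apart.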

How the results depend on the processing

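Limits come first from the small groups, 2 to 4 libraries in all sorted comparisons, and from libraries that moved in most of the 38 genes at once. Scaling by TPM moved the median of all genes by −0.15 for NASH-diet against healthy Kupffer cells, 0.22 for Ly6C-low against niche recruited macrophages, and −0.17, −0.12, −0.18 and −0.23 at weeks 1, 4, 20 and 30. The cause of each change below was not tested. Counts of called genes among the 38 moved as follows. NASH-diet against healthy Kupffer cells had 22 with no filter and 8 with limma on TPM. Week 1 had 12 with DESeq2, 1 with limma, 11 with a replicate block and 15 with only its 2 groups fitted. Week 4 had 2 with DESeq2, 4 with limma and 0 with 2 groups. Week 10 had 1 with DESeq2, with no filter and with a replicate block, and 3 with 2 groups. The LXR set had 1, lower, with DESeq2, with no filter and with a replicate block. Differences of diet effects had 8 with DESeq2 against week 20 and 8 against week 30. No label says that replicate numbers pair the libraries. Same-numbered libraries of the population set correlated in their deviations at 0.494, 0.437 and 0.350 between neighbouring NASH liver populations, 0.113 between Kupffer cells and −0.07 between liver and blood, over only 2 numbers each. With 3 or more numbers, no comparison had every pair above 0.1. With a replicate block the population set had 16, 0, 17, 10 and 26 of the 38 genes called, in the order of the report, against 13, 0, 15, 9 and 22. Uncalled differences that changed sign were Irf9 for Ly6C-low against niche recruited macrophages (0.021 with DESeq2, 0.021 with RLE, 0.30 with limma), Irf9 at week 1 (−0.22 with limma) and Irf7 at week 30 (−0.21 with limma).

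With 1 library left out, called genes numbered 1 to 6 at week 1, 0 to 2 at week 4, 0 to 1 at week 10, 5 to 8 at week 30 and 10 to 22 for week 30 against week 1. They numbered 4 to 10 for NASH-diet against healthy Kupffer cells, 4 to 7 for Ly6C-low against Ly6C-high, 14 to 21 for Ly6C-high against blood, 1 to 10 and 0 to 3 for the differences of diet effects at weeks 20 and 30, and 3 to 22 between healthy cells. Where this left 1 library in a group, it was taken to vary like the others. Uncalled differences then ran across 0. For Irf7 they ran from −0.10 to 0.42 in the LXR set, −0.062 to 0.21 at week 30, −0.27 to 0.92 at week 4, −0.56 to 0.22 for niche recruited against Kupffer cells, −0.91 to 0.0023 for Ly6C-low against Ly6C-high, and −0.10 to 0.55 for NASH-diet against healthy cells. For Irf9 they ran from −0.11 to 0.10 at week 1, −0.22 to 0.20 for niche recruited against Kupffer cells and −0.26 to 0.21 for Ly6C-low against niche recruited macrophages. For Stat2 they ran from −0.12 to 0.039 at week 10, −0.26 to 0.15 at week 20, −1.01 to 0.073 at week 4, −0.17 to 0.58 for niche recruited against Kupffer cells and −0.72 to 0.083 for Ly6C-low against Ly6C-high.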
